A study of Mus musculus with 6 samples.

Results

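Blood coagulation and fibrinolysis genes were examined in bone marrow-derived macrophages (BMDMs) after hypoxia serum starvation (HSS), a culture model of ischemia. The 9 genes were *F13a1*, *F10*, *F7*, *F3*, *F5*, *Thbs1*, *Plau*, *Plaur* and *Tfpi*, out of 36137 genes with a transcript in the tables, and all 9 passed the filter of 10 counts in total that left 18506 genes for testing. The genes were chosen by name with their difference between the genotypes in these libraries already known, so that difference is given as a description, and calls made on it are printed beside the share of all genes called and support nothing. RNA was measured in 3 WT and 3 Drp1 KO libraries, with no normoxic control. Drp1 KO BMDMs came from mice with LysM-Cre+/- and Drp1 fl/fl, in which the lysozyme M promoter drives Cre and deletes *Dnm1l*, the gene of the mitochondrial fission GTPase DRP1, in myeloid cells. WT BMDMs came from LysM-Cre+/- Drp1+/+ mice, so both groups carried the Cre transgene. Cells of both groups were grown in medium with 10% L929 supernatant, a source of M-CSF, and on day 7 were moved to serum-free medium at 2.1% oxygen for 8 hours. The study's methods state that marrow of a pair of mice per genotype was pooled, while its supplement gives the group size of the RNA-seq, equal to the number of libraries, for BMDMs from mice of each genotype, and the labels call the libraries biological replicates. None of these says how the pools and the libraries correspond, so the spread between libraries may be partly technical.

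Coagulation starts when tissue factor, the membrane protein encoded by *F3*, binds factor VIIa, and the pair activates factor X. Factor Xa with its cofactor factor Va makes thrombin, thrombin makes fibrin, and factor XIII, whose catalytic A subunit is encoded by *F13a1*, cross-links the fibrin. Tissue factor pathway inhibitor (*Tfpi*) blocks the first step, while urokinase (*Plau*), bound to its receptor (*Plaur*), turns plasminogen into plasmin, the protease that dissolves fibrin. Macrophages make many of these proteins themselves, and F13a1 is widely used as a marker of some resident and alternatively activated macrophages.

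The libraries held 23389488 to 32231206 estimated counts. Levels in CPM are counts scaled by each library's TMM-normalized size, and 3 counts, taken as the floor, lay between 0.0917 and 0.136 CPM, a limit for counting error alone. *Dnm1l* itself was at 72.7, 69.9 and 75.1 CPM in WT libraries 1 to 3 and at 58.7, 60.7 and 66.3 CPM in the libraries labelled Drp1 KO (log2 fold change -0.23, standard error 0.0921, edgeR adjusted p = 0.248). The groups did not overlap but the difference did not pass the test, and summed counts do not show whether the floxed exon was read. By immunoblot, the study reports deletion of DRP1 protein in BMDMs of the knockout mice, a measure that mRNA levels do not replace. All 7 macrophage markers were detected, with *Lyz2* between 8173 and 9960.8 CPM. The libraries numbered 1 of both groups stood apart from those numbered 2 and 3, and the log2 fold changes of genes that followed them are given with and without them. In bulk RNA, fewer cells of a type and less RNA per cell cannot be told apart.

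On the per-length scale (TPM), *Plaur* was at 169 to 379 TPM over the 6 libraries, above every other gene in each group, but only with the 347-base transcript Plaur-205 in the sum. Without Plaur-205 it was at 72.8 to 136 TPM and overlapped *Thbs1* (67.8 to 112 TPM) and *Plau* (52.3 to 109.7 TPM), which also overlapped each other. *Tfpi* was at 27.0 to 33.6 TPM and *F10* at 17.2 to 39.5 TPM. In WT BMDMs *F13a1* stood with them, at a mean of 31.5 ± 3.10 TPM, and its libraries overlapped those of both. In Drp1 KO BMDMs its mean was 9.61 ± 1.03 TPM, below every *F10* library and overlapping *F7* (8.04 ± 1.97 TPM, SD, n = 3 for each mean). *F5* and *F3* had the lowest levels, at 0.608 ± 0.0972 and 0.649 ± 0.253 TPM in WT and 1.82 ± 0.494 and 1.33 ± 0.0995 TPM in Drp1 KO BMDMs (SD, n = 3), and did not separate from each other in either group.

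**Figure D1:**
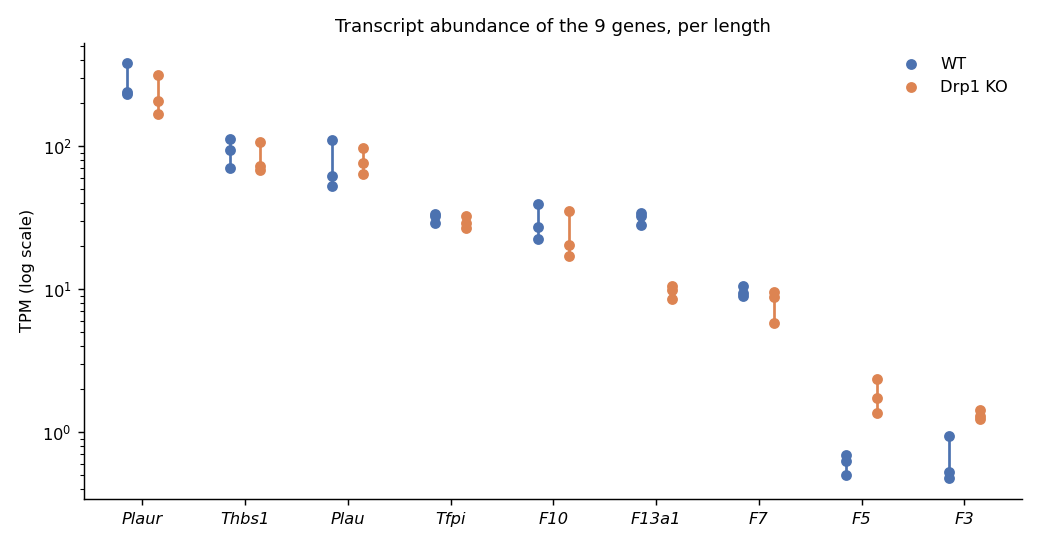
Level of each of the 9 genes in TPM (log scale), with 1 point per library, WT in blue and Drp1 KO in orange, and a line from the lowest to the highest library. *F13a1* stands beside *Tfpi* and *F10* in WT BMDMs and beside *F7* in Drp1 KO BMDMs, and *F5* and *F3* are lowest.

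*F13a1* (ENSMUSG00000039109) lies on the minus strand of chromosome 13, at chr13:37051152-37234277 in GRCm39. Its level was 75.0, 64.0 and 77.4 CPM in WT libraries 1 to 3 and 27.1, 22.6 and 26.5 CPM in Drp1 KO libraries 1 to 3. Every Drp1 KO library was lower than every WT library, with a wide gap between the groups and a narrow spread inside them. The means were 72.2 ± 7.15 and 25.4 ± 2.43 CPM (SD, n = 3), a 2.84-fold lower level, or -1.51 on the log2 scale with a standard error of 0.116. Library 2 was the lowest of its group in both genotypes, and over 14 alternative settings the log2 fold change stayed between -1.63 and -1.42.

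**Figure D2:**
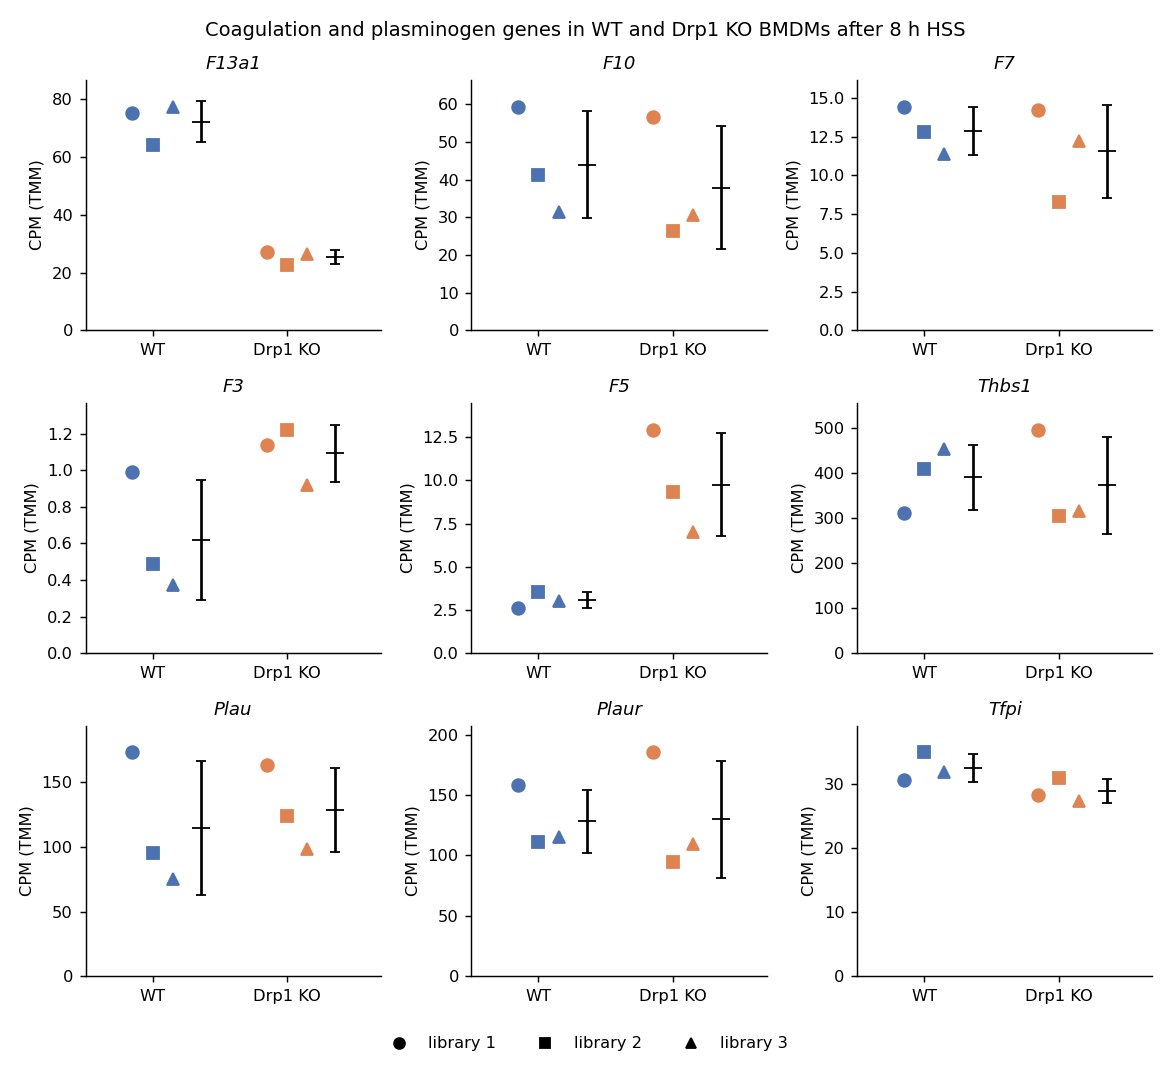
CPM (TMM-normalized) of the 9 genes in each library, with the library number as the symbol, WT in blue and Drp1 KO in orange, and the mean with SD (n = 3) to the right of each group. The groups are apart for *F13a1* (75.0, 64.0 and 77.4 against 27.1, 22.6 and 26.5 CPM) and for *F5*, and overlap for the other 7 genes.

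Of the 9 genes, 2 had groups that did not overlap, *F13a1* and *F5*, beside 21.9% of all genes tested. The same 2 had an adjusted p under 0.05 in edgeR's quasi-likelihood test, beside 3.36% of the 18506 genes, with *F13a1* lower (1.06% of all genes were called lower) and *F5* higher (2.29% were called higher). With the libraries of equal number treated as pairs, the 2 called genes were again *F13a1* and *F5*, beside 12% of all genes. These calls use the contrast the genes were selected on, and nothing is read from their number.

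Megakaryocytes and monocytes also make factor XIII, and markers of these and other cell types were read beside *F13a1*. Of 8 megakaryocyte and platelet markers, 7 passed the filter and 0 were called, and their summed level was 48.4 to 73.3 CPM in WT and 48.8 to 78.6 CPM in Drp1 KO libraries. Nearly all of it was *Pf4*, which macrophages also express, while the platelet receptor gene *Gp1ba* had 1.41 to 2.93 CPM, *Treml1* 0.604 to 1.40 CPM and *Itga2b* 0.345 to 1.05 CPM. *Gp1bb* was at or under the floor in all libraries. For the 5 classical monocyte markers the summed level was 10.1 to 16.5 CPM in WT and 18.0 to 27.4 CPM in Drp1 KO libraries, and for the 6 neutrophil markers 5.48 to 16.3 and 14.2 to 37.8 CPM, with *Ly6g* at 0 in all 6. Of these, 0 were called, beside 3.36% of all genes, and with the libraries paired by number 2 of each list were called higher, beside 12%. Of the 7 macrophage markers, *Csf1r* (log2 fold change -0.52) and *Mertk* (-0.52) fell and *Fcgr1* rose (1.34; edgeR adjusted p = 0.0340, 0.0236 and 0.000322). The 6 fibroblast markers summed to 1.84 to 3.06 CPM in WT and 1.89 to 2.0 CPM in Drp1 KO libraries, with 0 called. Of 6 endothelial markers *Kdr* was called higher (log2 fold change 0.94, edgeR adjusted p = 0.0144), and the summed level was 66.4 to 81.9 and 65.7 to 81.6 CPM. *Tek*, with 3, 0 and 3 counts in WT and 0 in Drp1 KO libraries, was at the floor and not tested, and *Cdh5*, with 9 and 36 counts in all, did not pass (log2 fold change 1.85, edgeR adjusted p = 0.222). The part of these cells and markers in the levels of *F13a1* and *F5* was not tested.

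The reads of *F13a1* were divided by kallisto among 5 annotated transcripts. Most fell on F13a1-201, which begins at position 37233264 and took 76.6%, 88.7% and 98.0% of the gene's estimated counts in WT libraries 1 to 3 and 58.1%, 88.4% and 77.2% in Drp1 KO libraries 1 to 3. F13a1-202 has another first exon, with a start site 1013 bases upstream, and took 15.6%, 4.89% and 0.00789% in WT and 40.4%, 8.71% and 19.9% in Drp1 KO libraries. In counts, F13a1-201 went from 1332, 1515 and 2227 in WT to 347, 655 and 668 in Drp1 KO libraries, with no overlap. F13a1-202 had 272, 83.5 and 0.179 against 241, 64.5 and 172 counts and overlapped throughout. The retained-intron transcript F13a1-205 had 117 and 67.8 counts in WT libraries 1 and 2 and was listed at 0 in the other 4. The groups overlapped in the shares of both F13a1-201 and F13a1-202 (means of 6.84% ± 7.99 and 23.0% ± 16.1 for F13a1-202, SD, n = 3), and the test of transcript shares did not pass (adjusted p = 0.317, edgeR diffSpliceDGE). Over 9 alternatives the adjusted p lay between 0.0501, without WT library 3, and 0.688.

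Because the 2 transcripts start apart, the 250 bases before each start site were read from the GRCm39 genome and are shown 5′ to 3′ on the minus strand. F13a1-201 is preceded by chr13:37233265-37233514, inside the first intron of F13a1-202, and F13a1-202 by chr13:37234278-37234527. Capitals mark a match to any of 7 short motifs described below, and there is none before F13a1-201.
F13a1-201: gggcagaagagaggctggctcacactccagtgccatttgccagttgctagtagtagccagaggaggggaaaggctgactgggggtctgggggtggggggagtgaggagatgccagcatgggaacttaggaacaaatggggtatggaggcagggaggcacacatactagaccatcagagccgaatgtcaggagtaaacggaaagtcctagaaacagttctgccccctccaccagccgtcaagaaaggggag
F13a1-202: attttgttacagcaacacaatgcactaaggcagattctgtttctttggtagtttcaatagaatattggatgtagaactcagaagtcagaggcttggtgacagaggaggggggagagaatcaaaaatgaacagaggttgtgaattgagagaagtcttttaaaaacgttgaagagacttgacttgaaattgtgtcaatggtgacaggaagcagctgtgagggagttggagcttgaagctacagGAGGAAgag
The upstream window held 56.8% G and C before F13a1-201 and 41.6% before F13a1-202. The match before F13a1-202 was a PU.1 core, which starts 9 bases before the start site. The length of F13a1-201 was the same in the tables and in the annotation used here (3954 bases), while F13a1-202 had 3854 and 3911 bases, so its first base in the authors' index may differ.

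*F5* (ENSMUSG00000026579, chr1:163979289-164047846, plus strand) encodes factor V, the precursor of the cofactor of factor Xa. It had 2.63, 3.56 and 3.0 CPM in WT libraries and 12.9, 9.35 and 6.99 CPM in Drp1 KO libraries. The highest WT library was below the lowest Drp1 KO library, and the Drp1 KO libraries were spread more widely than the WT libraries. The means were 3.06 ± 0.468 and 9.76 ± 2.99 CPM (SD, n = 3), a 3.16-fold higher level, or 1.66 on the log2 scale with a standard error of 0.238. These levels rest on 61, 95 and 88 counts in WT and 285, 306 and 228 counts in Drp1 KO libraries. Over the 14 alternatives the log2 fold change ran from 1.32, without libraries 1 of both groups, to 1.86, without Drp1 KO library 3.

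The window before the *F5* start site is given since *F5* and *F13a1* differed in opposite directions. It covers chr1:163979039-163979288 on the plus strand, holds 55.6% G and C, and has a match to a C/EBP site, in capitals, that starts 189 bases before the start site.
F5-201: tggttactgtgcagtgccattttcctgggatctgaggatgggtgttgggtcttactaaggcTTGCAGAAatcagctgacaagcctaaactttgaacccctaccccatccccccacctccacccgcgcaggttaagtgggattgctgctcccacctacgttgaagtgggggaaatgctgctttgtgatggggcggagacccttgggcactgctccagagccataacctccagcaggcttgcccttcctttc
The transcript had 7430 bases in the tables and 7548 in the annotation, so this start site too may differ from that of the authors' index. Of the 9 genes, 5 share exon bases with an annotated gene of the opposite strand (*F13a1*, *F3*, *F5*, *Thbs1* and *Plau*). For each of the 8 such partners 27 to 642 bases are shared. The labels name a stranded kit, the strand setting of the quantification is not given in the sources used here, and reads of the partners were not separated from those of the 9 genes.

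Across the 10 windows (1 for each gene and F13a1-202) both strands were searched for motifs of factors that act in hypoxic or activated macrophages. The hypoxia response element core ACGTG was found before *F10* and *Tfpi* and in 17.0% of the 21757 windows of protein-coding genes. Its variant GCGTG was found before *Thbs1* and in 31.2% of all windows. An AP-1 site, TGANTCA, was found before *F3*, *Plaur* and *Thbs1* and in 6.18% of all windows. A C/EBP site, TTGCNNAA, was found before *F5* and *Plaur* and in 9.34% of all windows. The PU.1 core GAGGAA was found before F13a1-202, *F7* and *Plaur* and in 22.9% of all windows. A STAT site, TTCNNNGAA, and the TATA box TATAAA were found in 0 of the 10, and in 7.70% and 11.9% of all windows. Before *Plau* there was no match. No match overlapped another, and a match is a run of letters and not a measured binding site.

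*F10* (ENSMUSG00000031444) and *F7* (ENSMUSG00000031443) encode vitamin K-dependent serine proteases and are neighbours on chromosome 8, at chr8:13087293-13106676 and chr8:13076002-13085809, with 1483 bases between them. *F10* had 59.4, 41.1 and 31.3 CPM in WT and 56.6, 26.5 and 30.5 CPM in Drp1 KO libraries. Library 1 was the highest of each group and the groups overlapped (log2 fold change -0.22, standard error 0.289, and -0.35 without libraries 1). *F7* had 14.4, 12.8 and 11.4 CPM in WT and 14.2, 8.31 and 12.2 CPM in Drp1 KO libraries (log2 fold change -0.16, standard error 0.192, and -0.24 without libraries 1). It too was highest in library 1 of each group, and the deviations of *F10* and *F7* from their group means correlated at r = 0.842 over the 6 libraries, which share their depth and preparation between the genes. *F10* was read mainly from F10-201 (66.4% ± 3.45 in WT and 69.3% ± 2.24 in Drp1 KO) and F10-202 (27.4% ± 4.21 and 24.2% ± 3.11, SD, n = 3), which start at the same base. *F7* has a single transcript in the tables.

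*F3* (ENSMUSG00000028128, chr3:121516610-121528820) encodes tissue factor, the initiator of coagulation. It was near the floor, with 0.992, 0.487 and 0.375 CPM in WT and 1.13, 1.22 and 0.920 CPM in Drp1 KO libraries. Only WT library 1, at 23 counts, reached into the Drp1 KO range of 25 to 40 counts on the CPM scale, and the other WT libraries had 13 and 11 counts. The log2 fold change was 0.84 with a standard error of 0.412, and it ran from 0.55 without WT library 3 to 1.33 without WT library 1. Its canonical transcript F3-201 took 92.8%, 88.7% and 52.4% of the counts in WT and 55.7%, 61.7% and 45.6% in Drp1 KO libraries. The rest went mainly to F3-204, which starts inside the gene, and the test of shares did not pass on these few counts (adjusted p = 0.342, edgeR diffSpliceDGE).

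*Tfpi* (ENSMUSG00000027082, chr2:84263195-84307164) encodes the inhibitor of the tissue factor and factor VIIa complex. Its level was 30.6, 34.9 and 31.9 CPM in WT and 28.2, 31.0 and 27.4 CPM in Drp1 KO libraries (log2 fold change -0.17, standard error 0.105). The groups overlapped, by the Drp1 KO library 2 alone, and the standard error was the smallest of the 9 genes. With length-scaled counts the log2 fold change was -0.03. *Tfpi* was the gene with the most divided reads, with 10 transcripts in the tables, of which 4 share a distal and 5 a proximal 3′ end region. Those with the distal end took 64.1%, 59.4% and 59.1% of the counts in WT and 66.3%, 64.9% and 63.9% in Drp1 KO libraries (60.9% ± 2.79 and 65.1% ± 1.22, SD, n = 3), and the groups overlapped through WT library 1. Among single transcripts, Tfpi-207 took 9.33%, 12.8% and 13% in WT and 22.9%, 17.2% and 18.7% in Drp1 KO libraries. Tfpi-204 took 3.57%, 9.58% and 15.2% in WT and 2.34%, 1.16% and 4.45% in Drp1 KO libraries. The test over all transcripts of *Tfpi* that passed the filter had an adjusted p of 0.418 (edgeR diffSpliceDGE), and these 2 transcripts were singled out after their values were seen.

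*Plau* (ENSMUSG00000021822, chr14:20886722-20893453) encodes urokinase, the plasminogen activator of macrophages. It had 173, 95.5 and 75.1 CPM in WT and 163, 124 and 98.2 CPM in Drp1 KO libraries (log2 fold change 0.17, standard error 0.277, and 0.38 without libraries 1). *Plaur* (ENSMUSG00000046223, chr7:24161875-24175394), which encodes its receptor, had 158, 111 and 115 CPM in WT and 185, 94.4 and 109.5 CPM in Drp1 KO libraries (log2 fold change 0.02, standard error 0.231, and -0.15 without libraries 1). For both genes the genotypes overlapped and library 1 was the highest of each group. Nearly all *Plau* reads fell on Plau-201 (99.9% ± 0.124 in WT and 99.7% ± 0.329 in Drp1 KO BMDMs). *Plaur* reads fell on Plaur-201 (83.2% ± 2.60 and 86.0% ± 0.494) and on the 347-base retained-intron transcript Plaur-205 (15.3% ± 2.90 and 12% ± 0.457, SD, n = 3). The share of Plaur-205, singled out after its values were seen, was lower in every Drp1 KO library (11.5% to 12.3%) than in every WT library (13.3% to 18.6%), and the test over the transcripts of *Plaur* did not pass (adjusted p = 0.964, edgeR diffSpliceDGE).

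*Thbs1* (ENSMUSG00000040152, chr2:117941974-117957616) encodes thrombospondin-1, a matrix protein that binds CD36 and CD47 and is known for inhibiting angiogenesis. Its level was 312, 409 and 453 CPM in WT and 497, 305 and 317 CPM in Drp1 KO libraries (log2 fold change -0.07, standard error 0.195). The order of the genotypes depended on the library number. Among libraries 1 the Drp1 KO library was higher, and among libraries 2 and 3 both Drp1 KO libraries were below both WT libraries. Without libraries 1 the log2 fold change was -0.47, and *Thbs1* was then among the called genes with *F13a1* and *F5*, beside 10.5% of all genes, in a fit chosen after the data were seen. Library 1 was the lowest *Thbs1* library in WT and the highest in Drp1 KO BMDMs, so unlike *Plau* and *Plaur* it did not move alike in both genotypes.

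Library number was then tested beside genotype, since *F10*, *Plau* and *Plaur* had been seen to follow it. The numbers are the labels' replicate numbers, and what they share is not stated. Of the 9 genes, 3 were called, *F10*, *Plau* and *Plaur*, beside 4.37% of all genes tested. Libraries 1 had 1.64 times the *F10* level of libraries 2 and 3 in WT and 1.99 times in Drp1 KO BMDMs (edgeR adjusted p = 0.0119). The ratio was 2.03 and 1.47 for *Plau* (adjusted p = 0.00848) and 1.40 and 1.82 for *Plaur* (adjusted p = 0.0119). *F13a1* (ratios 1.06 and 1.10, adjusted p = 0.200), *F5* (0.802 and 1.58, 0.428), *Thbs1* (0.724 and 1.60, 0.840) and *Tfpi* (0.917 and 0.967, 0.490) did not pass, nor did *F7* (1.19 and 1.39, 0.269) or *F3* (2.30 and 1.06, 0.493). The test was added after the pattern was seen in these libraries and is not independent of it.

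**Figure D3:**
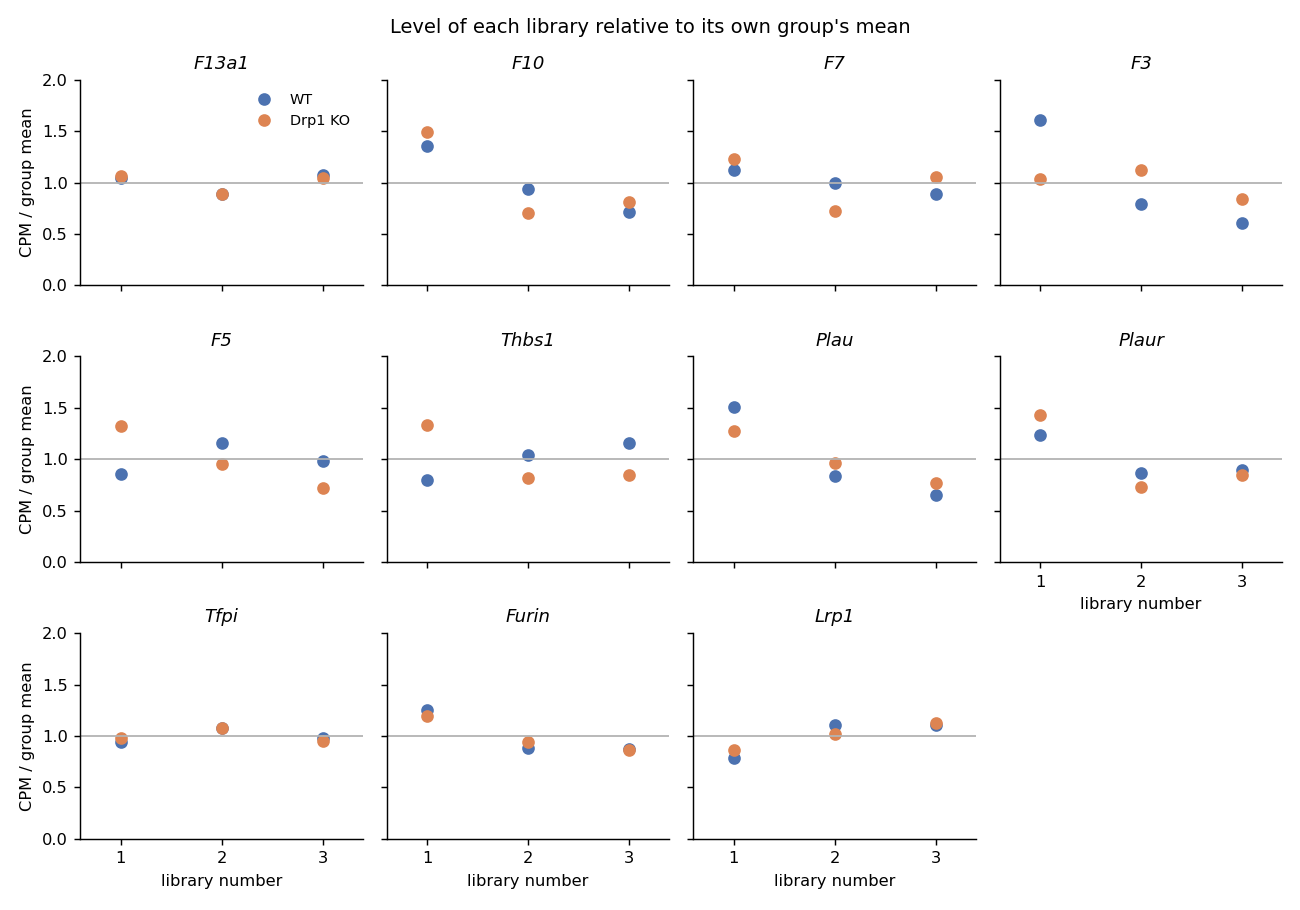
CPM of each library divided by the mean of its own group, against the library number, for the 9 genes and 2 pathway genes, with WT in blue and Drp1 KO in orange. Library 1 is above the other libraries of both groups for *F10*, *F7*, *Plau*, *Plaur* and *Furin*, below them for *Lrp1*, and at opposite ends for *Thbs1*.

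Of the other genes of the pathway, 48 were tested and 2 were called for library number, beside the same 4.37%. *Furin*, a proprotein convertase, was higher in libraries 1 (ratios 1.43 and 1.32, edgeR adjusted p = 0.0229). *Lrp1*, an endocytic receptor of macrophages, was lower in them (0.707 and 0.804, edgeR adjusted p = 0.0429). Between the genotypes, the log2 fold change of *Furin* was -0.12 with and -0.08 without libraries 1, and that of *Lrp1* was -0.44 (edgeR adjusted p = 0.179) and -0.49 (0.0117). The deviations of *F10* and *Plaur* from the group means correlated at r = 0.945 over the 6 libraries, and those of *Plau* and *Plaur* at 0.732. Of the 32 marker genes tested, 5 were called for library number. *Pf4* (ratios 1.55 and 1.43, edgeR adjusted p = 0.0115) and the macrophage gene *Cd68* (1.23 and 1.45, 0.0394) were higher in libraries 1, as *F10*, *Plau* and *Plaur* were. *Chil3*, of the monocyte list (0.337 and 0.412, edgeR adjusted p = 0.00999), and the neutrophil genes *S100a8* (0.536 and 0.285, 0.0175) and *S100a9* (0.309 and 0.416, 0.00328) were lower. Between the genotypes, the log2 fold changes with and without libraries 1 were 0.15 and 0.19 for *Pf4*, -0.02 and -0.12 for *Cd68*, 0.81 and 0.76 for *Chil3*, 1.38 and 1.52 for *S100a8* and 1.30 and 1.23 for *S100a9*. In the fit with no covariate the last 3 did not pass with libraries 1 and passed without them, beside 10.5% of all genes (edgeR adjusted p = 0.0265, 0.000805 and 0.000452). With all 6 libraries, paired by number, these 3 also passed, beside 12% of all genes (edgeR adjusted p = 0.00590, 0.00145 and 7.85e-05). With DESeq2 on all 6 libraries *S100a8* passed (adjusted p = 0.0109), while *Chil3* (0.236) and *S100a9* (0.220) did not. *S100a9* had 3.45, 10.2 and 12.1 CPM in WT and 10.9, 26.2 and 26.4 CPM in Drp1 KO libraries, and the part of these markers in the differences was not tested.

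The makeup of transcripts within a gene was not what the genes were selected on. Of the 9 genes, 6 had at least 2 transcripts that passed the filter, and 0 were called by edgeR's test of transcript shares between the genotypes, beside 4.81% of the 11121 genes tested (adjusted p from 0.317 for *F13a1* to 0.9999 for *F10*). At an unadjusted p under 0.05, 0 of the 6 passed. kallisto's error in dividing reads among overlapping transcripts is not in that test, and none of the alternatives tried for it called any of the 9 genes.

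**Figure D4:**
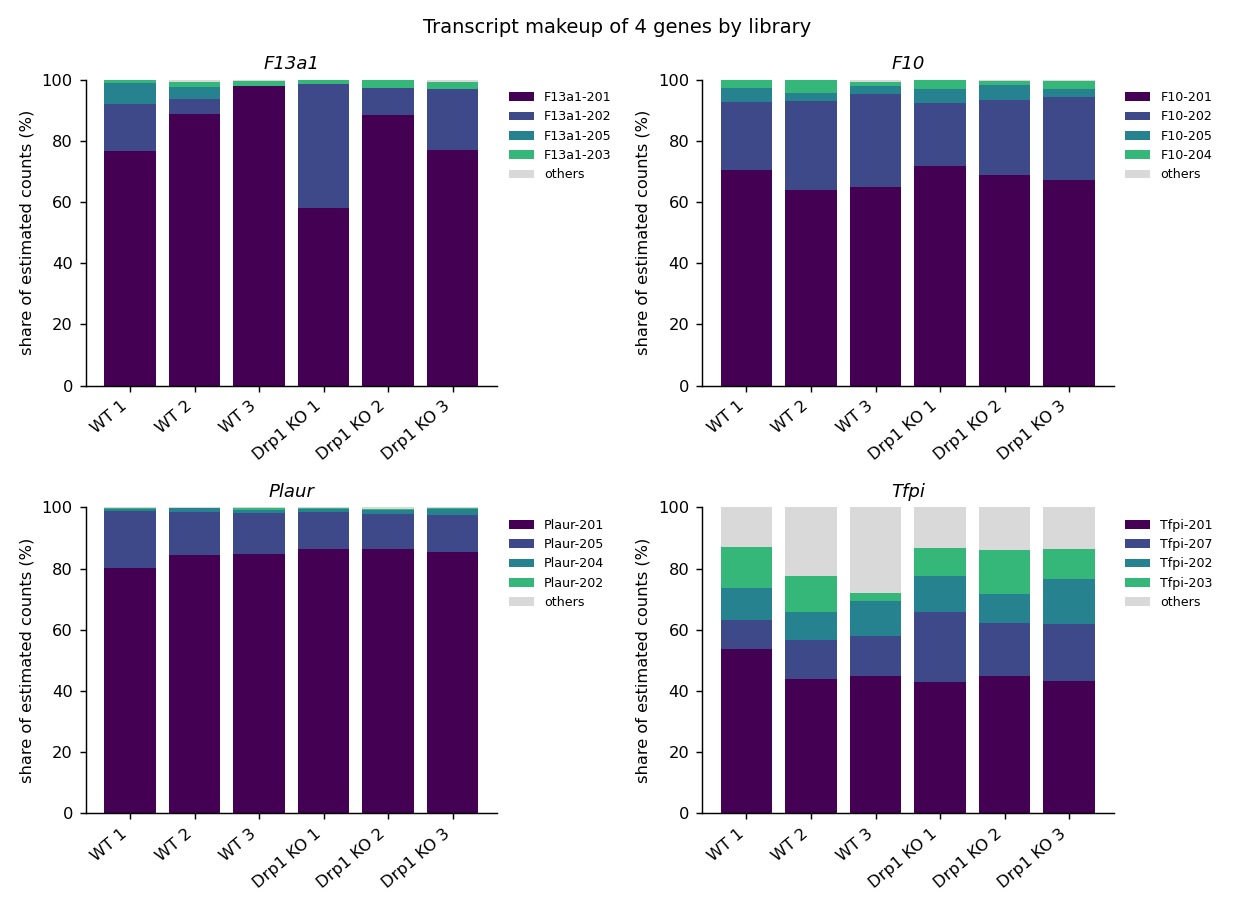
Share of each gene's estimated counts (%, stacked to 100) on its 4 leading transcripts and on all others, by library, for *F13a1*, *F10*, *Plaur* and *Tfpi*. F13a1-202 ranges from near 0 in WT library 3 to 40.4% in Drp1 KO library 1, while F10-201 takes 64.0% to 71.7% and Plaur-201 80.2% to 86.3%.

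The 65 other genes of coagulation, anticoagulation, plasminogen activation, transglutaminases and thrombospondins were listed by function. Of these, 17 did not pass the filter, among them *Plg* (plasminogen), *Proc* (protein C), *F12* and *Fgg*, which had 0 counts in all 6 libraries, and *F13b*, the carrier subunit of factor XIII, with 0.0375 CPM in WT library 2 and 0 in the others. Of the 48 tested, 1 was called, with 0 lower, beside 3.36% of all genes. Their median log2 fold change was -0.03, with 22 above 0 and 26 below, beside a median of 0.00460 over all genes.

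The called gene was *Cd47*, a receptor of thrombospondin-1 and of SIRPα. It had 482.5, 399 and 407 CPM in WT and 658, 631 and 624 CPM in Drp1 KO libraries, and the groups were apart. It rose by 0.57 on the log2 scale (standard error 0.103, edgeR adjusted p = 0.0159). With a library left out, the adjusted p was 0.143 for WT library 2, 0.122 for WT library 3 and 0.0544 for Drp1 KO library 2, and it was between 0.000107 and 0.0381 under the other 11 alternatives. *Cd36*, another receptor of thrombospondin-1 (0.02, standard error 0.131), and *Sirpa*, the partner of CD47 (-0.09, standard error 0.106), did not pass.

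**Figure D5:**
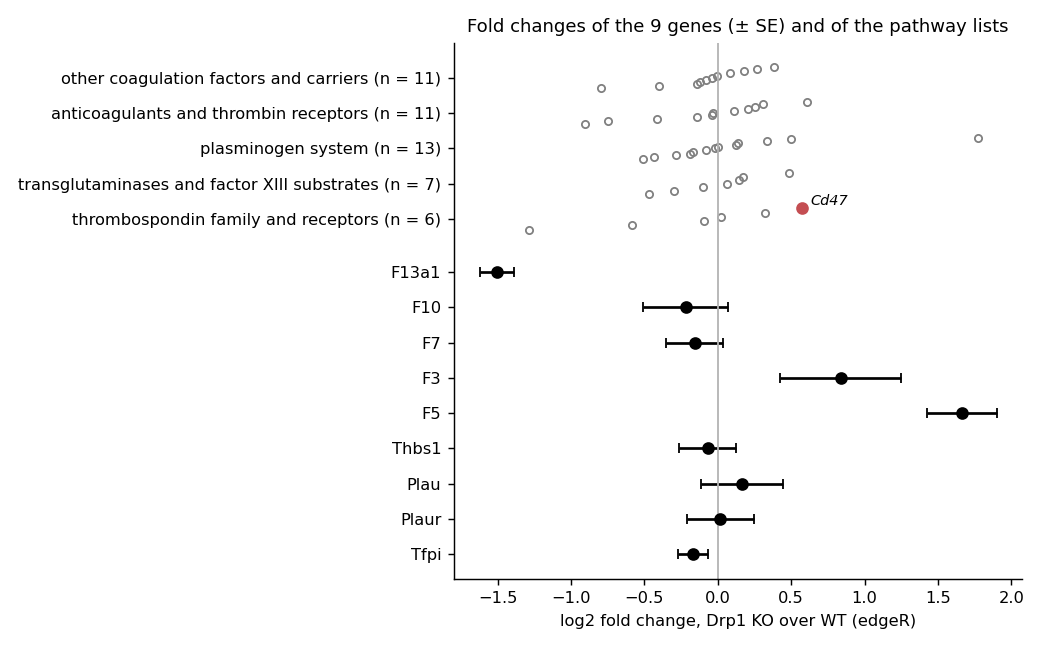
Log2 fold change, Drp1 KO over WT, of the 9 genes (black, with standard error) and of the 48 other pathway genes tested (grey, open, 1 point per gene by list; red, adjusted p under 0.05). *Cd47* at 0.57 is the single called gene of the lists, and *F13a1* at -1.51 and *F5* at 1.66 are beyond them, except for 1 gene near the floor at 1.77.

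Among other coagulation factors and carriers, 0 of 11 were called. The 3 with the highest mean TPM were *Lman1* and *Mcfd2*, which carry factors V and VIII out of the endoplasmic reticulum, and *Furin*, with log2 fold changes of -0.01 (standard error 0.0919), 0.27 (0.114) and -0.12 (0.162). Among anticoagulants and thrombin receptors, 0 of 11 were called, with *Anxa5* at -0.14 (0.113), *Procr*, the protein C receptor, at 0.11 (0.120) and *Pros1*, protein S, at -0.41 (0.154). Among the transglutaminases and factor XIII substrates, 0 of 7 were called. *Tgm2*, tissue transglutaminase, which cross-links proteins as factor XIII does, had 146, 132 and 112 CPM in WT and 189, 104 and 114 CPM in Drp1 KO libraries (log2 fold change 0.06, standard error 0.204). *Tgm1* was at -0.30 (0.267) and *Fn1*, fibronectin, at -0.47 (0.204). Without libraries 1 of both groups, 6 pathway genes were called, beside 10.5% of all genes, and nothing is read from that number. They included *Mcfd2*, at 0.36 (edgeR adjusted p = 0.0408), and *Vwf*, von Willebrand factor, at -0.63 (0.0398), which were at 0.27 (0.274) and -0.40 (0.313) with libraries 1.

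In the plasminogen system, 0 of 13 were called. The 3 with the highest mean TPM were *Itgb2*, an integrin chain (log2 fold change -0.28, standard error 0.118), *S100a10*, a plasminogen receptor (0.50, 0.161), and *Anxa2*, its partner (-0.08, 0.0993). With the libraries of equal number treated as pairs, the count over all 5 lists went from 1 to 7 of 48, beside 12% of all genes, and 5 of the 7 were in the plasminogen system. By that replicate block *Cd47* (adjusted p = 0.000777), *Itgav* (0.0112) and *S100a10* (0.0185) were higher in Drp1 KO BMDMs, and *Lrp1* (0.00480), *Itgb3* (0.00927), *Pros1* (0.0455) and *Itgb2* (0.0468) were lower (edgeR). *Itgav* and *Itgb3* encode the chains of the vitronectin receptor. *Itgav* had 176 to 190 CPM in WT and 224 to 239 CPM in Drp1 KO libraries, and *Itgb3* 90.8 to 101 and 55.8 to 79.8 CPM, so these chains differed in opposite directions under the block.

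The levels over the 6 libraries most like that of *F13a1*, by Pearson's r of log2 CPM among 12248 genes that averaged 1 CPM or more, were those of *Galnt1* (r = 0.997), *Phactr2* (0.996), *Tubd1* (0.995), *Myo10* (0.994) and *Heatr6* (0.994). All 5 were lower in Drp1 KO than in WT BMDMs without overlap, as the choice by likeness to *F13a1* implies. Their log2 fold changes were smaller, from -0.13 for *Galnt1* to -0.91 for *Myo10*, which had 119 to 134 CPM in WT and 61.0 to 71.0 CPM in Drp1 KO libraries. With the group means taken out, their deviations correlated with those of *F13a1* at 0.805 to 0.903, which the choice over the same libraries also favours. Those of *Tfpi*, singled out after the values were seen, correlated with *F13a1* at -0.919. The other members, without *F3*, lay between -0.172 for *F5* and 0.608 for *Plaur*. These are descriptions over 6 libraries that share depth and preparation.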

How the data were processed

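RNA-seq of WT and Drp1 KO BMDMs after HSS was analysed in 3 libraries each. The authors quantified paired-end reads with kallisto 0.46.1 on an Ensembl cDNA index of GRCm39 and deposited, per transcript, an estimated count and a TPM value. The submitters' processing notes also name DESeq2 1.44.0. The authors' estimated counts are not scaled between libraries, and their TPM values are per transcript length. The labels and the study's methods give different L929 and oxygen percentages and extraction kits, and the labels' are used. The labels give no age or sex. The study's methods state an age range and the use of male and female mice, but not by library.

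Transcripts were matched by identifier without version to GENCODE's mouse annotation of GRCm39 (99.4% of 116873), with 0.542% to 0.575% of a library's counts on the others. Estimated counts and TPM were added per gene, and counts were rounded. Genes with at least 10 counts in total were tested with edgeR 4.0.16 (R 4.3.3), TMM and the quasi-likelihood test with no covariate, with Benjamini-Hochberg adjustment over all genes. Transcript shares were tested with diffSpliceDGE. DESeq2 1.42.0 was an alternative. Scripts were tested on simulated data.

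Same-numbered libraries deviated together from their group means (r = 0.510, 0.204 and 0.298 over 12248 genes, other pairs -0.443 to 0.326). WT library 2 with Drp1 KO library 3 had 0.326, above the same-numbered pairs of libraries 2 and 3. The values thus set libraries 1 apart but do not tell how libraries 2 and 3 pair. The replicate block took equal numbers as pairs, which the study does not state. The 9 genes and the pathway and marker lists were chosen with earlier results of these data known. Named were the 9 genes, pathway genes with adjusted p under 0.05, the 3 of each list with the highest mean TPM, the 5 genes most like *F13a1* and markers by list. Genes called under the block, for library number or without libraries 1 were named after their values were seen. Promoter windows were 250 bases before the start site of the canonical transcript in GRCm39. Protein sequences were not used here, and 1 item of the pathway lists is not reported here.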

Additional observations from a re-analysis of the deposited data

How the results depend on the processing

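The genes were chosen on the difference of *F13a1* and *F5*, so their calls, which were the same under the 14 gene-level alternatives, add no support. *Thbs1* was called without libraries 1 of both groups, an alternative chosen after seeing the data. *F10*, *F7*, *Thbs1*, *Plau* and *Plaur* changed the sign of their small log2 fold changes under at least 1 alternative. The count over all genes, 621, was 1155 with DESeq2, 1065 with a filter of 1 count, 2212 with the replicate block, 1880 without libraries 1 of both groups, and 181 to 904 with a library left out (181 for WT library 2, 217 for WT library 3, 268 for Drp1 KO library 2 and 348 for Drp1 KO library 3). The count over the pathway lists, 1, was 3 with DESeq2 or a filter of 1 count, 2 with library size only, 7 with the replicate block, 6 without libraries 1 and 0 to 2 with a library left out. The count of genes with a difference in transcript shares, 535, was 598 with the replicate block and 324 to 584 with a library left out (324 and 343 for WT libraries 2 and 3, 338 and 333 for Drp1 KO libraries 2 and 3). The count for library number was 808 with edgeR and 905 with DESeq2. The cause of these moves was not tested. Counts limit *F3* most, with 11 to 40 per library. With 3 libraries per group and no normoxic arm, neither the size of a response to HSS nor a difference in it could be measured.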
